A study of Mus musculus with 18 samples.

Results

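The formin family of actin organizers was followed in individual mouse 2-cell embryos. The members were the 10 formin genes Daam1, Daam2, Diaph1, Diaph2, Diaph3, Fmn1, Fmn2, Fmnl1, Fmnl2 and Fmnl3, taken by their symbol in the array's annotation. A gene with several probe sets naming it alone would enter through the one whose mean over the embryos was highest. The family was chosen by measured values of these same embryos. Which values these were is not recorded. Those of Daam1 are taken as used, and those of the other members may have been, so no test of a member is independent of the choice. The spread of Daam1 between embryos and fathers is given as a description, and nothing is read from a test of it. Of the 10 genes, 9 were measured, each by 1 probe set, among 28815 probe sets in all. Fmnl3 has no probe set listed under its name, so it enters only the promoter windows.

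The 18 embryos were from natural matings of wild-type females and were profiled 1 embryo per Affymetrix Mouse Gene 1.0 ST array. The 9 Parg(110)-/+ embryos were sired by 3 Parg(110)-/- males, called PargA, PargB and PargC, and carried 1 copy of a Parg allele that lacks exons 2 and 3. Parg is the gene for the glycohydrolase that degrades poly(ADP-ribose). The 9 WT embryos were sired by 3 wild-type males, called WT1, WT2 and WT3. All mice were on the 129SVE (129S6/SvEvTac) background, each male sired 3 embryos, and an embryo is written as its father and its number (PargB-1). Because every Parg(110)-/+ embryo had a Parg(110)-/- father, an effect of the father and one of the embryo's own genotype cannot be told apart.

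Formins build unbranched actin filaments. Their formin homology domains take up profilin-bound actin and stay on the growing end of the filament, and most members are held folded and inactive until an upstream signal opens them. The DAAM proteins act with Dishevelled downstream of Wnt, the diaphanous proteins act in stress fibres and in the contractile ring, and the FMNL proteins act at the cell edge. In the mouse oocyte FMN2 makes the cytoplasmic actin mesh that moves the meiotic spindle to the cortex, and the transcripts of a 2-cell embryo are in part a legacy of the oocyte and in part made by its own newly active genome. Each array held the RNA of a whole embryo, so oocyte-derived and new transcript, and a change in 1 blastomere or in both, cannot be told apart.

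The sequences before the annotated starts of 4 members are shown because the results below turn on these genes, which varied the most (Daam1) or differed at the unadjusted threshold (Fmn2, Diaph3 and Fmnl1). They are RefSeq sequence of build GRCm38.p6, written 5′ to 3′ on the strand of the gene and ending at the base before its outermost annotated start. Each is the part of a 250-base window, taken before a start further in, that lies outside the gene. Capitals mark the GC box GGGCGG and the CCAAT box, each on either strand.

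Daam1 (chr12:71830818-71830949, plus strand): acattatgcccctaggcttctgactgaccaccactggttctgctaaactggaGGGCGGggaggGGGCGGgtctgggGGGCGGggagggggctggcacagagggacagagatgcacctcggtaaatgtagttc
Fmn2 (chr1:174501575-174501751, plus strand): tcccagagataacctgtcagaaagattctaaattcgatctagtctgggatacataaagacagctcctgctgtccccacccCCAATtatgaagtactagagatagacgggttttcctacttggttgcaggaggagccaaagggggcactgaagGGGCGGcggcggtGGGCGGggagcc
Diaph3 (chr14:87141248-87141474, minus strand): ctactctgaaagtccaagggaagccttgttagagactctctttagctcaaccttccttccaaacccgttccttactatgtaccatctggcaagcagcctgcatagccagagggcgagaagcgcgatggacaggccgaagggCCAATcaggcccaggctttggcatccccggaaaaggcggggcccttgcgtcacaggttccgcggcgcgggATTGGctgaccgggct
Fmnl1 (chr11:103170888-103171003, plus strand): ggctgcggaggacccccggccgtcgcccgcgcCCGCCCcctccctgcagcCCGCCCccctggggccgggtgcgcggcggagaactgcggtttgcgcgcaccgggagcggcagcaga

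The Daam1 stretch held 3 GC boxes and no CCAAT box, and the Fmnl1 stretch held 2 GC boxes. That of Fmn2 held 2 GC boxes and 1 CCAAT box, and that of Diaph3 held 2 CCAAT boxes and no GC box. RefSeq windows of 250 bases before a start were at hand for 9 of the 10 members, 12 windows in all. These members include Fmnl3, which was not measured, and leave out Diaph1, which was. A GC box was found in 9 of these 12 windows, against 32.7% of all 32851 windows, and a CCAAT box in 5 of the 12, against 33.8% of all windows. The TATA box TATAAA was found in 0 of the 12, against 12.4% of all windows. The 12 windows held between 0 and 40 CpG dinucleotides with a median of 14, against a median of 6 over all windows. The 2 windows of Daam2 share most of their bases, so the 12 are not all separate promoters. The boxes are matches of letters, and binding at them was not measured here.

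The deposited values are log2 values after robust multichip average (RMA) normalization, so a difference of 1 is a 2-fold difference. Array medians were between 6.44 and 6.53 in Parg(110)-/+ embryos and between 6.34 and 6.49 in WT embryos, and any 2 arrays correlated at between 0.92 and 0.96 over all probe sets. The Parg probe set, which reads the whole transcript and is no direct check of a deletion of exons 2 and 3, was between 9.37 and 10.83 in Parg(110)-/+ embryos and between 9.55 and 10.89 in WT embryos. All 10 measured embryo and oocyte markers were above a background mark of 6.46, the 95th percentile of the means of 1035 olfactory receptor probe sets. Their mean ran between 10.79 and 11.57 in Parg(110)-/+ embryos and between 10.79 and 11.51 in WT embryos. Of the markers of cumulus, granulosa and oviduct cells, 1 of 7 (Pax8) was above the mark, with list means of 5.83 to 6.09 in Parg(110)-/+ embryos and 5.66 to 6.00 in WT embryos. Of the blood markers, 0 of 3 were above it, with list means of 5.20 to 5.38 in Parg(110)-/+ embryos and 5.11 to 5.27 in WT embryos. Of the spermatid markers 3 of 6 (Prm1, Prm2 and Tnp2) were above it, with list means of 6.02 to 6.23 in Parg(110)-/+ embryos and 5.84 to 6.32 in WT embryos. Their relation to Daam1 is given with its values, and the part of such RNA in the formin values was not tested.

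The means of 6 formins over the 18 embryos were above the background mark, namely Daam1 (8.55), Diaph1 (8.80), Diaph3 (11.45), Fmn1 (6.64), Fmn2 (9.19) and Fmnl2 (7.46). Those of Daam2 (5.77), Diaph2 (4.74) and Fmnl1 (6.45) were below it, and of all probe sets 50.2% were above it. Levels of different probe sets are not ranked against each other, since probes differ in how brightly they bind.

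**Figure D1:**
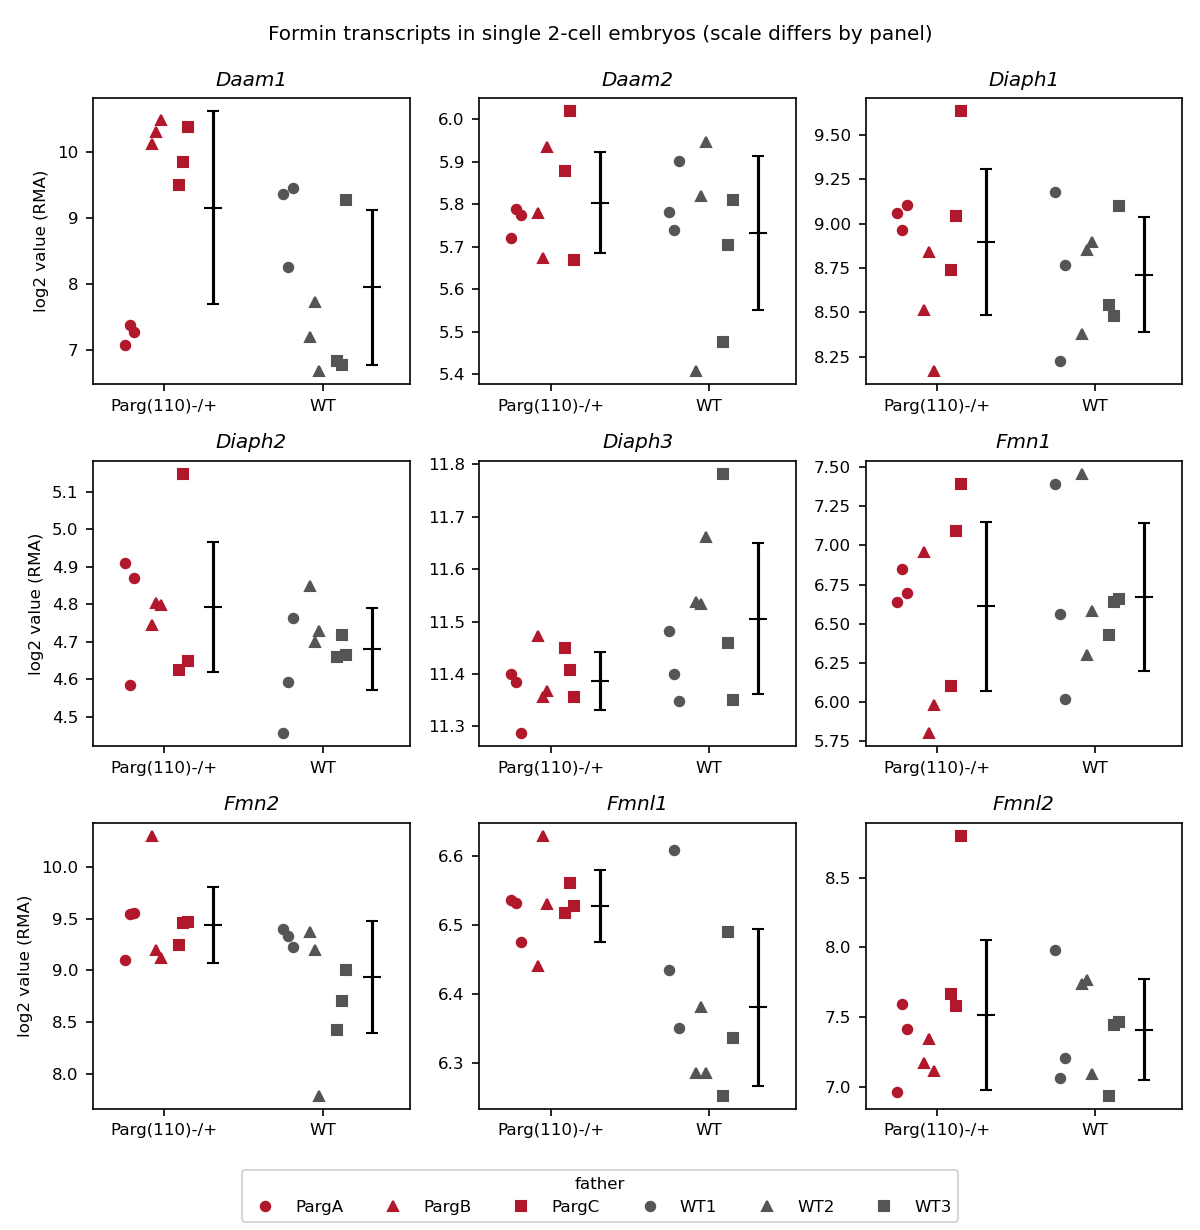
Deposited log2 values of the 9 measured formins in single 2-cell embryos, Parg(110)-/+ on the left and WT on the right of each panel. Points are embryos with a symbol for each father, bars are the mean ± SD of 9 embryos, and the vertical scale differs by panel. Daam1 runs between 6.67 and 10.48, whereas all 18 values of Fmnl1 lie between 6.25 and 6.63.

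Daam1 (dishevelled associated activator of morphogenesis) varied the most between embryos. The embryos of PargA had Daam1 values of 7.07, 7.38 and 7.27, those of PargB 10.12, 10.31 and 10.48, and those of PargC 9.49, 9.85 and 10.38. WT embryos had 9.36, 8.26 and 9.46 when sired by WT1, 7.18, 7.72 and 6.67 when sired by WT2, and 6.82, 6.76 and 9.27 when sired by WT3. The 6 embryos of PargB and PargC were therefore the highest of the 18, the 3 embryos of PargA lay among the low WT embryos, and the WT embryos themselves spanned both ranges. The values covered 3.80 on the log2 scale, a 13.9-fold range between WT2-3 and PargB-3.

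Placed in order, the Daam1 values had their widest step, of 1.01, between WT1-2 (8.26) and WT3-3 (9.27). Above it lay 6 Parg(110)-/+ and 3 WT embryos, and below it 3 Parg(110)-/+ and 6 WT embryos. Embryos of the same Parg(110)-/- father lay on the same side of this step in all 3 families, whereas WT1 and WT3 each had embryos on both sides. The mean ± SD of 3 embryos was 7.24 ± 0.16 for PargA, 10.30 ± 0.18 for PargB and 9.91 ± 0.45 for PargC, against 9.02 ± 0.67 for WT1, 7.19 ± 0.52 for WT2 and 7.62 ± 1.43 for WT3.

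The SD of Daam1 within a genotype was 1.33, larger than that of 95.7% of the 1017 probe sets whose mean was within 0.25 of its own, which had a median SD of 0.54. Fmn1, the founding member of the family, had an SD of 0.51 and exceeded 85.9% of the probe sets of like mean. The steadiest formins were Fmnl1, with an SD of 0.09 that exceeded 1.88% of its peers, and Diaph3, with an SD of 0.11 that exceeded 2.53%. Fmnl2 exceeded 63.4% of its peers, Diaph2 48.8%, Daam2 45.8%, Fmn2 37.3% and Diaph1 22.4%. Members thus lay near both ends of the range of variability at their level. The high end is Daam1, whose values are taken as used in the choice of the family. At the low end, the mean of Fmnl1 was below the background mark, whereas that of Diaph3 was above it.

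Daam1 was set beside the list means of the 4 marker groups and beside the array median, 5 relations over 18 embryos with permutation tests. All 18 embryos were permuted without regard to father, although Daam1 was alike within each Parg(110)-/- family, so these p-values can be too small. Nor are these tests independent of the choice of the family. With the mean of the 3 blood markers Daam1 had r = 0.56 (permutation p = 0.0169, adjusted p = 0.0602) and Spearman correlation = 0.65 (permutation p = 0.00423, adjusted p = 0.0154), and with the array median r = 0.53 (permutation p = 0.0241, adjusted p = 0.0602) and Spearman correlation = 0.63 (permutation p = 0.00618, adjusted p = 0.0154). The r with the blood markers was 0.45 within Parg(110)-/+ embryos, 0.32 within WT embryos and 0.44 without WT2-3 and PargC-2, and that with the array median was 0.42 within Parg(110)-/+ embryos, 0.37 within WT embryos and 0.41 without WT2-1 and PargB-3. The blood markers were all below the background mark, and among them S100a8 (mean 4.97) had r = 0.70 with Daam1, Itgam 0.23 and Ptprc 0.13.

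With the spermatid markers Daam1 had r = 0.45 (permutation p = 0.0626, adjusted p = 0.0903) and Spearman correlation = 0.48 (adjusted p = 0.0743), with 0.07 within Parg(110)-/+ embryos, 0.51 within WT embryos and 0.38 without WT1-3 and WT2-1. With the cumulus, granulosa and oviduct markers it had r = 0.43 (permutation p = 0.0723, adjusted p = 0.0903) and Spearman correlation = 0.43 (adjusted p = 0.0961), with 0.27 within Parg(110)-/+ embryos, 0.35 within WT embryos and 0.22 without WT2-1 and PargB-3. With the embryo and oocyte markers it had r = 0.03 (permutation p = 0.920, adjusted p = 0.920) and Spearman correlation = 0.04 (adjusted p = 0.891). Whether other cells' RNA or array scale had a part in the Daam1 values was not tested.

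The gene most like Daam1 in its pattern over the 18 embryos was Sh3d19, on chromosome 3, which encodes an SH3 domain adaptor. Among 11312 other probe sets that name 1 gene and have a mean at or above the median of all probe sets, it had the highest Pearson r with Daam1, 0.93 (Spearman correlation 0.89), with r of 0.94 within Parg(110)-/+ embryos and 0.93 within WT embryos. Sh3d19 was at 6.82, 7.29 and 7.71 in the embryos of PargA, at 9.09, 9.67 and 8.83 in those of PargB and at 8.36, 8.69 and 9.34 in those of PargC. In WT embryos it was at 8.70, 8.72 and 8.51 (WT1), at 7.59, 7.75 and 6.81 (WT2) and at 7.08, 7.15 and 8.93 (WT3). The 9 embryos above the widest step of Daam1 and WT1-2 thus made up the embryos with Sh3d19 above 8. Next came Hdc (r = 0.82), the histidine decarboxylase gene, Zfp319 (r = 0.78), a zinc finger gene, Igdcc3 (r = 0.77), a member of the immunoglobulin superfamily, and Dek (r = 0.77), a chromatin protein gene. These likenesses were picked as the highest of many on the same arrays and are a description.

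**Figure D2:**
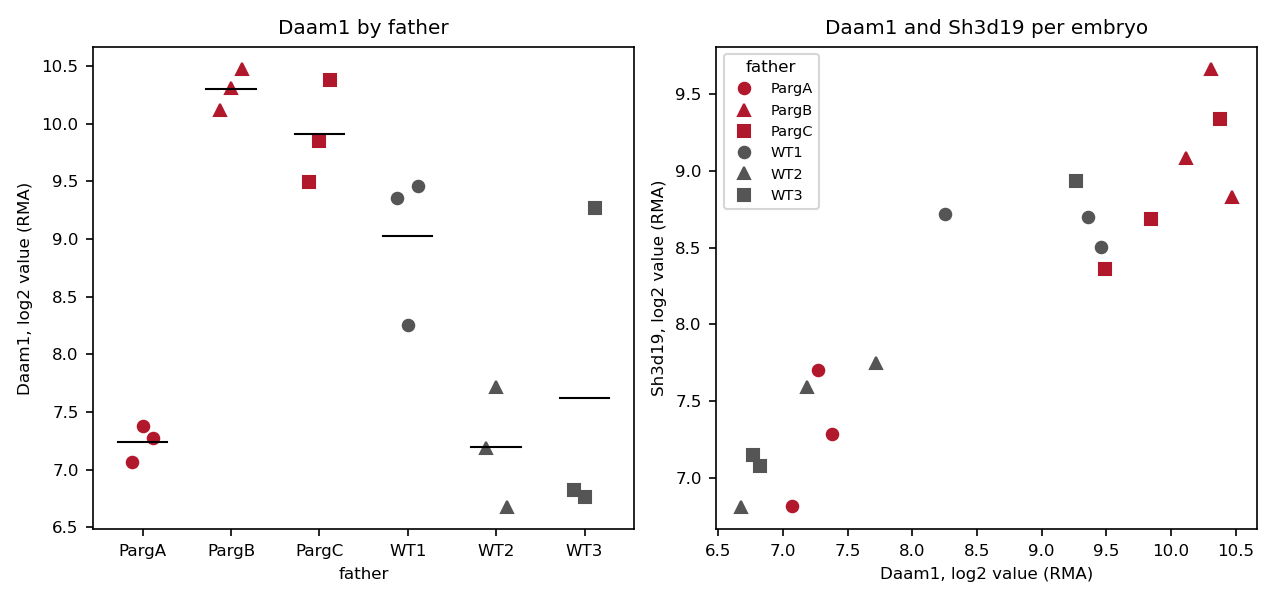
Left, Daam1 log2 values of the 3 embryos of each father, with the father's mean as a line; right, Sh3d19 against Daam1 in the same 18 embryos (both axes in log2 values). The families of PargB and PargC lie between 9.49 and 10.48 for Daam1 and that of PargA between 7.07 and 7.38, and Sh3d19 follows the same division.

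Parg(110)-/+ and WT embryos were then compared over all 18 arrays with limma. A probe set was called where its p, adjusted by Benjamini-Hochberg over the whole array, was under 0.1. No formin was called (0 of 9), and 0% of the 28815 probe sets were. At an unadjusted p under 0.05, 3 of the 9 formins (33.3%) passed, Diaph3, Fmn2 and Fmnl1, against 10.5% of all probe sets. That count was 1 (Fmnl1) without WT3-1, 1 without the family of WT3 or of PargC, and 4, with Daam1 added, without WT1-3, WT3-3 or the family of WT1. The mean was higher in Parg(110)-/+ embryos for 7 formins and lower for 2, with a median difference of 0.11, while 67.1% of all probe sets were higher, with a median difference of 0.05. The ranges of the genotypes overlapped for all 9 formins.

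Among the DAAM members, Daam1 averaged 9.15 ± 1.46 in Parg(110)-/+ embryos and 7.94 ± 1.17 in WT embryos (SD, n = 9 each). The difference was 1.20 ± 0.60 (SE), or 2.30-fold, with a 95% interval of -0.05 to 2.46 and an adjusted p of 0.490. That SE and interval take the embryos of 1 father as independent. In the limma fit to means per father, the SE of Daam1 was 0.94 (adjusted p = 0.696). Of the Parg(110)-/+ embryos, 6 of 9 were above the WT mean, and these were the same 6 that exceeded the highest WT embryo. The size rested on which father was included. It was 2.16 without the family of PargA and 0.63 without that of PargB, and neither was called. The mean of Daam2, the paralog of Daam1, was below the background mark. Its lowest, median and highest values were 5.67, 5.78 and 6.02 in Parg(110)-/+ embryos and 5.41, 5.78 and 5.95 in WT embryos. The limma difference was 0.07 ± 0.07 (adjusted p = 0.715).

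Fmn2, the oocyte formin, ranged between 9.10 (PargA-1) and 10.30 (PargB-1) with a median of 9.46 in Parg(110)-/+ embryos, and between 7.79 (WT2-3) and 9.40 (WT1-1) with a median of 9.20 in WT embryos. By father, its mean ± SD was 9.40 ± 0.26 for PargA, 9.54 ± 0.66 for PargB and 9.39 ± 0.13 for PargC, against 9.32 ± 0.09 for WT1, 8.79 ± 0.87 for WT2 and 8.71 ± 0.29 for WT3. All 9 Parg(110)-/+ embryos were above the WT mean and 5 were above the highest WT embryo, while 5 of the WT embryos lay within the Parg(110)-/+ range. The difference in Fmn2 was 0.50 ± 0.21 with a 95% interval of 0.06 to 0.95 and an adjusted p of 0.443, and it was 0.36 without WT2-3. Fmn1 did not share this difference in size, with means of 6.61 ± 0.54 in Parg(110)-/+ and 6.67 ± 0.47 in WT embryos and a difference of -0.06 ± 0.23 (95% interval -0.54 to 0.42, adjusted p = 0.936). The sign of the Fmn1 difference turned when single embryos were left out.

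Among the diaphanous members, Diaph3, which is known for its part in cytokinesis, had the lower mean in Parg(110)-/+ embryos. Its lowest, median and highest values were 11.29, 11.38 and 11.47 in Parg(110)-/+ embryos and 11.35, 11.48 and 11.78 in WT embryos. None of the 9 Parg(110)-/+ embryos was above the WT mean, and the upper WT values came from WT2-3 (11.66) and WT3-1 (11.78). The difference was -0.12 ± 0.06 (95% interval -0.23 to -0.003, adjusted p = 0.467), and with means per father it did not reach the unadjusted level. Diaph1, a widely expressed member, averaged 8.90 ± 0.41 in Parg(110)-/+ embryos and 8.71 ± 0.33 in WT embryos, a difference of 0.18 ± 0.17 (adjusted p = 0.687). Diaph2, on the X chromosome, averaged 4.79 ± 0.17 in Parg(110)-/+ embryos and 4.68 ± 0.11 in WT embryos, below the background mark in both, with a difference of 0.11 ± 0.07 (adjusted p = 0.564).

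Fmnl1, a formin best known from blood cells, gave the smallest p of the family. Its lowest, median and highest values were 6.44, 6.53 and 6.63 in Parg(110)-/+ embryos and 6.25, 6.35 and 6.61 in WT embryos. All 9 Parg(110)-/+ embryos were above the WT mean of 6.38, and the 1 WT embryo above all but the highest of them was WT1-2. The difference of 0.15 ± 0.05 (95% interval 0.05 to 0.25, adjusted p = 0.362) was small beside that of Fmn2, lay at the background mark, and became 0.09 when array medians were made equal. Fmnl2, an effector of Cdc42 in lamellipodia, averaged 7.52 ± 0.54 in Parg(110)-/+ embryos and 7.41 ± 0.36 in WT embryos, a difference of 0.11 ± 0.21 (adjusted p = 0.865) that turned to -0.06 without PargC-3.

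**Figure D3:**
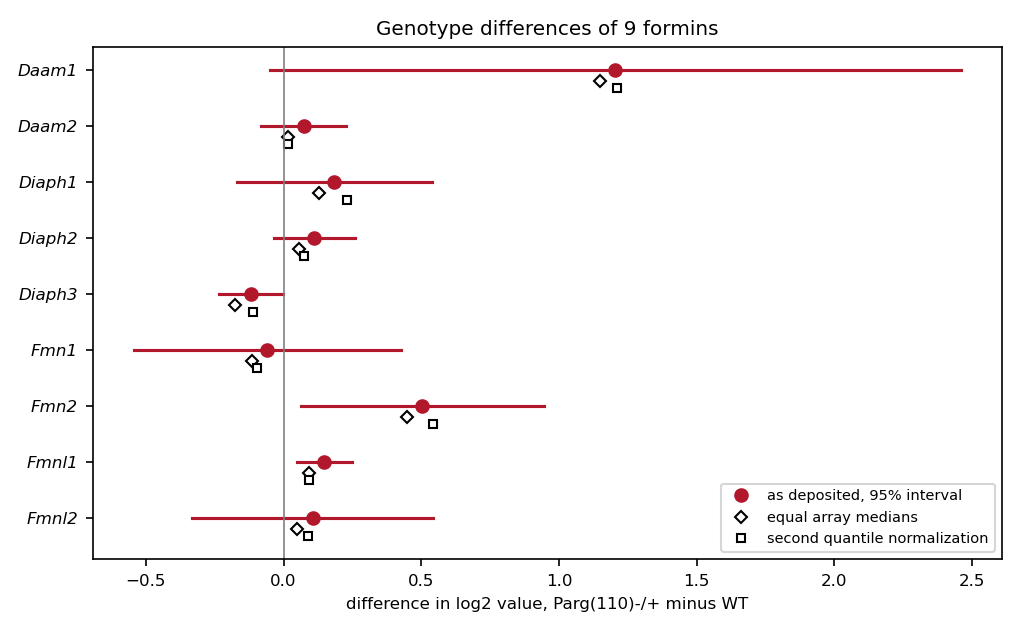
Differences between the genotypes (Parg(110)-/+ minus WT, log2) of the 9 measured formins, with the 95% interval of the limma fit on the deposited values (filled circles) and the values after equal array medians (diamonds) or a second quantile normalization (squares). The intervals of Fmn2, Fmnl1 and Diaph3 leave out 0, that of Daam1 is the widest, and no formin was called after adjustment. All intervals take the embryos of a father as independent.

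The spread itself differed in both directions. The SD in Parg(110)-/+ embryos was 0.38 times that in WT embryos for Diaph3 and 0.46 times for Fmnl1, followed by 0.66 for Daam2 and 0.68 for Fmn2. It was 1.14 times for Fmn1, 1.25 for Daam1, 1.26 for Diaph1, 1.48 for Fmnl2 and 1.57 for Diaph2. These ratios were not tested.

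Because each embryo is the product of 1 sperm, every Parg(110)-/+ embryo was also set against the 9 WT embryos. None of the 81 formin values was called. Over all probe sets the share called was 0.628% for PargA-1, 0.635% for PargA-2, 0.604% for PargA-3, 2.17% for PargB-1, 0.691% for PargB-2, 0.826% for PargB-3, 0.76% for PargC-1, 0.625% for PargC-2 and 0.843% for PargC-3. When single WT embryos were compared with the other 8 in the same way, 0.731% of all values were called and again 0 of the 81 formin values. The formin closest to a call was Fmnl2 in PargC-3, which at 8.80 was 1.39 ± 0.36 above the WT mean (adjusted p = 0.238). Next were Diaph2 in PargC-2, at 5.15 and 0.47 ± 0.13 above (adjusted p = 0.339), and Fmn2 in PargB-1, at 10.30 and 1.36 ± 0.53 above (adjusted p = 0.384). Among WT embryos, the value with the lowest adjusted p was Fmn2 in WT2-3, which at 7.79 differed by -1.30 from the mean of the others (adjusted p = 0.354). For Daam1 the differences from the WT mean in single embryos were -0.88, -0.57 and -0.67 (PargA), 2.17, 2.36 and 2.53 (PargB) and 1.55, 1.90 and 2.44 (PargC), each with an SE of 1.13 set by the WT embryos.

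Set against the 9 WT embryos as a family, the embryos of PargA gave 0% of probe sets called, those of PargB 0.0139% and those of PargC 0.0104%, and no formin was among them (0 of 27 values). Daam1 was 2.36 ± 0.57 higher in the family of PargB (adjusted p = 0.189), 1.96 ± 0.57 higher in that of PargC (adjusted p = 0.431) and -0.71 ± 0.57 from WT in that of PargA (adjusted p = 0.997). The 3 families had the same 9 WT embryos as their reference, and the embryos of 1 father were taken as independent. Since Daam1 is taken as chosen with these values known, nothing is read from its tests here. Fmnl2 differed by 0.60 ± 0.25 in the family of PargC, -0.20 ± 0.25 in that of PargB and -0.09 ± 0.25 in that of PargA. Fmn2 and Fmnl1 differed from WT by like amounts in the 3 families, Fmn2 by 0.46, 0.60 and 0.45 and Fmnl1 by 0.13, 0.15 and 0.16 for PargA, PargB and PargC. For Diaph3 the differences were -0.15, -0.11 and -0.10 in the same order.

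Fathers of 1 genotype were compared with limma's F test. Among the 3 Parg(110)-/- fathers 0 of 9 formins were called, against 0.0104% of all probe sets, and at an unadjusted p under 0.05 only Daam1 passed, against 5.34% of all probe sets. Among the 3 WT fathers 0 of 9 were called, against 0.00347% of all probe sets, and again only Daam1 passed at the unadjusted level, against 4.39%. Since Daam1 is taken as chosen with these values known, nothing is read from that. For the other 8 formins the lowest adjusted p between fathers was 0.928, for Fmnl2 among the Parg(110)-/- fathers.

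Pairs of formins were compared over the 18 embryos, 36 pairs in all, with permutation tests of 100000 resamples and adjustment over the pairs. Here too the embryos were permuted without regard to father. The median r was 0.07 and 21 pairs had a positive r. A single pair passed an adjusted p of 0.1. Diaph3 and Fmnl1 ran in opposite directions, with r = -0.66 (permutation p = 0.00203, adjusted p = 0.0731) and Spearman correlation = -0.44 (permutation p = 0.0656, adjusted p = 0.343). The relation rested in part on WT2-3 and WT3-1, without which r was -0.38, and it was -0.23 within Parg(110)-/+ embryos and -0.55 within WT embryos. After each array's median was subtracted, r was -0.47.

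Diaph1 and Fmnl2 varied together with r = 0.62 (permutation p = 0.00665, adjusted p = 0.120) and Spearman correlation = 0.41 (adjusted p = 0.366), 0.72 within Parg(110)-/+ embryos and 0.42 within WT embryos. Without PargB-3 and PargC-3, the embryos with the lowest and the highest Diaph1, r was 0.30. Fmn1 and Fmnl2 had r = 0.54 (permutation p = 0.0170, adjusted p = 0.183) and Spearman correlation = 0.47 (adjusted p = 0.343), with 0.52 within Parg(110)-/+ embryos, 0.62 within WT embryos and 0.57 without WT2-1 and PargB-2. Daam1 and Fmn2 had r = 0.50 (permutation p = 0.0254, adjusted p = 0.183) and Spearman correlation = 0.43 (adjusted p = 0.343), but 0.09 within Parg(110)-/+ embryos against 0.63 within WT embryos, and 0.32 without WT2-3 and WT3-2. Daam1 and its paralog Daam2 had r = 0.37 (permutation p = 0.135, adjusted p = 0.486) and Spearman correlation = 0.23 (adjusted p = 0.756). Diaph3 and Fmn2 had r = -0.57 (permutation p = 0.0213, adjusted p = 0.183) and Spearman correlation = -0.28. Their r was 0.36 within Parg(110)-/+ embryos, -0.64 within WT embryos and 0.07 without WT2-3 and WT3-1. Daam1 and Diaph3 had r = -0.49 (permutation p = 0.0328, adjusted p = 0.197) and Spearman correlation = -0.46. Their r was 0.29 within Parg(110)-/+ embryos, -0.74 within WT embryos and -0.42 without WT2-3 and WT3-2. For none of the pairs in this paragraph did the correlation pass the adjustment.

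**Figure D4:**
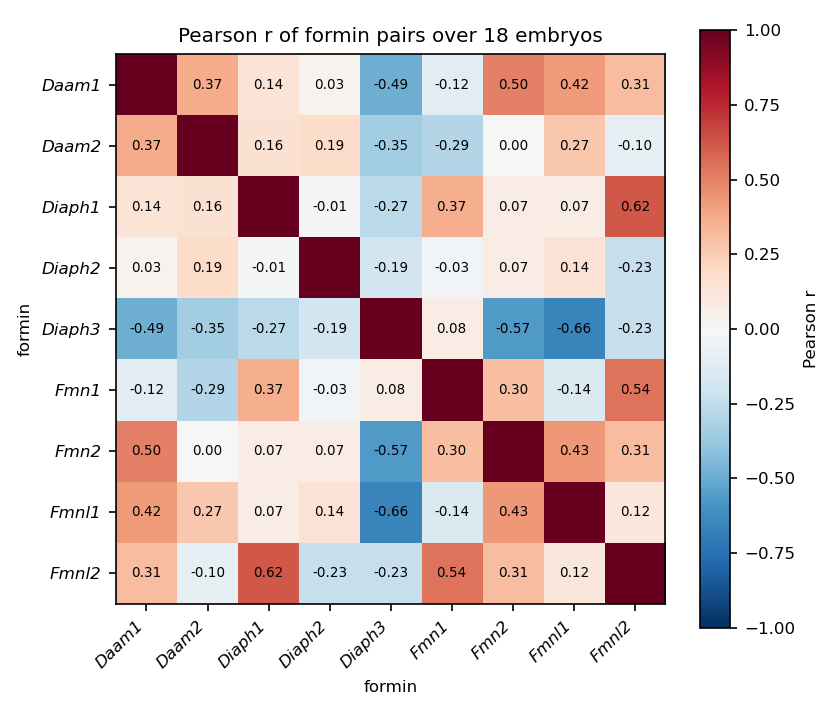
Pearson r of each pair of the 9 measured formins over 18 embryos (colour and number; red positive, blue negative). The strongest value off the diagonal is that of Diaph3 with Fmnl1 (-0.66), followed by that of Diaph1 with Fmnl2 (0.62).

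The formins work within a larger actin apparatus, so 6 lists of its genes, 97 measured of 103, were read from the same genotype fit. None was called (0 of 97, against 0% of all probe sets), and at an unadjusted p under 0.05 4 were higher and 1 was lower in Parg(110)-/+ embryos, together 5.15%, against 10.5% of all probe sets. Of the 97, 63 were higher and 34 lower, with a median difference of 0.05, as over all probe sets.

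Of 4 further formins, Inf2, Fhod1, Fhod3 and Grid2ip, 4 were higher in the mean (median 0.09), as were 67.1% of all probe sets. At the unadjusted level 1 of the 4 passed, against 10.5% of all probe sets. This was Grid2ip, the gene of delphilin, at 5.94 ± 0.10 in Parg(110)-/+ embryos and 5.79 ± 0.11 in WT embryos (adjusted p = 0.381). Fhod1 came next with a difference of 0.07 ± 0.06. The means of Grid2ip (5.87) and Fhod1 (6.37) over the 18 embryos were both below the background mark.

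Of 12 genes for profilins, Spire proteins and the vesicle transport in which Spire and FMN2 work together, 0 passed the unadjusted level. The smallest p values there belonged to Rab11a, with a difference of 0.19 ± 0.12, and Spire2, with 0.12 ± 0.08. Of 20 genes for the Arp2/3 complex, its activators and other nucleators, 0 passed, with Wasf1 (0.36 ± 0.18) and Cobl (0.24 ± 0.13) first. Of 26 genes for actins and filament turnover, 0 passed, with Coro1c (-0.53 ± 0.26), a coronin, and Cap2 (0.12 ± 0.07), a cyclase-associated protein, first. Over all probe sets, 10.5% passed the unadjusted level and 0% were called. With so few genes, nothing is read about the partners of FMN2 from 0 of 12.

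The list of cytokinesis, myosin II and septin genes was the 1 list with more members lower (11) than higher (9), and its median difference was -0.01. Prc1, which bundles the microtubules of the spindle midzone, was at 10.88 ± 0.28 in Parg(110)-/+ embryos and 11.24 ± 0.08 in WT embryos, a difference of -0.36 ± 0.10 (adjusted p = 0.362), and all 9 Parg(110)-/+ embryos were below the WT mean. Septin9 was at 6.22 ± 0.08 in Parg(110)-/+ embryos and 6.11 ± 0.11 in WT embryos (adjusted p = 0.464). Neither was called.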

How the data were processed

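RNA of single 2-cell embryos was amplified with the WT-Ovation One-Direct kit and hybridized to Affymetrix Mouse Gene 1.0 ST arrays. The authors deposited log2 values made by RMA in Partek Genomics Suite (background correction, then quantile normalization, log2 transformation and a summary per probe set), and the versions are not given in the sources used here. Quantile normalization can reduce a change shared by most genes, and RMA compresses differences of dim probe sets. Arrays were grouped by the genotype and father in the labels, and no scan date was used.

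All 28815 probe sets were fitted, of which 21780 name 1 gene, 1605 name several and 5430 are not listed in the annotation. Two-sided tests were made with lmFit and eBayes of limma 3.58.1, run in R 4.3.3. P-values were adjusted by Benjamini-Hochberg over the whole array, and those under 0.1 were called. The comparisons were genotype, single embryos (the 1 embryo is taken to vary as WT embryos do), families against the 9 WT embryos, and fathers within a genotype (F test). The scripts were tested on simulated data. Pairs were tested by permutation in NumPy 2.4.6, with ranks from SciPy 1.17.1. The alternatives were the scaling of arrays, bright probe sets only, the father as a block or as means, a one-way ANOVA, array weights and leaving out embryos or fathers. P-values measure the spread between embryos, of which each father gave 3.

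The members, the actin lists and the markers were chosen with earlier results of these data known. All members were named, and from each actin list the 2 genes with the smallest p of the genotype fit, except for 1 list that enters the totals but is not reported here. As genes like Daam1, the 5 with the highest Pearson r among bright probe sets that name 1 gene were named. Promoters are windows of 250 bases from RefSeq GRCm38.p6, and 9 of the 10 members' promoters (all but Diaph1) were used.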

Additional observations from a re-analysis of the deposited data

Results flagged for a closer look

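The values of each formin were checked for a lone extreme embryo in each genotype, 18 groups of 9 in all, by the gap to the nearest embryo over the whole range (Dixon's criterion), a check that chance alone flags in about 1 of 20 groups. Fmn2 in PargB-1, at 10.30, stood 0.62 of the range above the next Parg(110)-/+ embryo (9.56). Fmnl2 in PargC-3, at 8.80, stood 0.62 of the range above the next (7.67). PargC-3 also had the highest Diaph1 (9.63) of the 18 embryos.

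In 3 pairs of families, every embryo of one lay above the WT mean and every embryo of the other below it. Daam1 was 3.06 higher in the embryos of PargB than in those of PargA, and 2.67 higher in those of PargC than in those of PargA. Fmnl2 was 0.81 higher in the embryos of PargC than in those of PargB. These contrasts were found by looking and were not tested pair by pair. Limma's F test over the 3 Parg(110)-/- fathers gave an adjusted p of 0.595 for Daam1 and 0.928 for Fmnl2.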

How the results depend on the processing

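The number of formins called remained 0 in each comparison under every alternative run, and of 343 values under alternatives 335 kept their direction and their side of the threshold. The 8 that turned were uncalled differences between the genotypes. That of Fmn1 ran between -0.157 and 0.0424 when single embryos were left out (0.03 without WT1-1, 0.04 without WT2-1, 0.0424 without PargB-2, 0.02 without PargB-3 and 0.005 without PargC-1) and was 0.12 without the family of PargB. That of Fmnl2 ran between -0.0551 (without PargC-3) and 0.18 and was -0.14 without the family of PargC. The cause was not tested. The difference of Daam1 ran between 0.63 and 2.16, and its lowest adjusted p was 0.294, without the family of PargA. At an unadjusted p under 0.05, equal array medians left 1792 probe sets and a second quantile normalization 1820, against 3018 on the deposited values, and Diaph3 and Fmn2 remained among them while Fmnl1 did not. Diaph3 was not among them with means per father (2205), with array weights (2864) or among bright probe sets (1335), where Fmn2 was the 1 formin left of 6 tested. The one-way ANOVA gave 3158 and the father as a random block 3291, each with all 3 formins. The block used 1 correlation for all probe sets, estimated at -0.02, so it made no allowance for embryos of a father being alike. The alternative of another probe set per gene was not run, since each formin had 1. No paired analysis was possible because no father sired embryos of both genotypes, and the embryo numbers only count embryos within a father. Precision is limited by having 9 embryos and 3 fathers of each genotype.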
